A study of Mus musculus with 4 samples.

Results

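Lag3, Havcr2, Lgals9, Tigit, Cd226, Cd96 and Btla encode LAG-3, TIM-3 with its ligand galectin-9, the receptors TIGIT, CD226 and CD96 of the nectin family, and BTLA. These 7 genes were taken by symbol from the 27998 genes of the count tables, and each symbol was found once. They were followed in the T, NK and myeloid cells of 4 single-cell RNA libraries made with 10x Genomics droplets and 3′ chemistry from mouse brain immune cells. The tumors were grown from glioma-005, a mouse glioblastoma line, in the hippocampus of C57BL/6J mice that were 8 to 12 weeks old, and antibodies were given intraperitoneally from day 7. The first library, called depletion here, came from tumors given anti-CTLA-4 (Syrian hamster clone 9H10) together with anti-CD4 (clone GK1.5). The second came from tumors given anti-CTLA-4 alone, the third from tumors given isotype control antibody (rat IgG2a, clone LTF-2), and the fourth from healthy brain, for which the labels state no antibody. The control clone is a rat antibody, so it does not match the species of the anti-CTLA-4 clone. The tumor libraries each pooled 3 tumors collected at day 35, and every group was 1 library.

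LAG-3, TIM-3, TIGIT, CD96 and BTLA are receptors that restrain lymphocytes. LAG-3, TIM-3 and TIGIT appear on T cells that meet antigen for long, as in tumors. LAG-3 binds MHC class II, and TIM-3, which T cells share with microglia, macrophages and dendritic cells, binds galectin-9, phosphatidylserine, HMGB1 and CEACAM1. CD226 is an activating receptor that competes with TIGIT and CD96 for the ligand CD155 and with TIGIT for nectin-2. BTLA, found mainly on B and T cells, binds the TNF receptor family member HVEM.

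The genes lie apart in the genome. By GENCODE vM21 (GRCm38, also called mm10), Lag3 (ENSMUSG00000030124) lies at chr6:124904361-124911705 on the minus strand, Havcr2 (ENSMUSG00000020399) at chr11:46454935-46481255 on the plus strand and Lgals9 (ENSMUSG00000001123) at chr11:78962974-78984946 on the minus strand. Tigit (ENSMUSG00000071552) at chr16:43648867-43664146 and Cd96 (ENSMUSG00000022657) at chr16:46035657-46120251 are on the minus strand, and Btla (ENSMUSG00000052013) at chr16:45224315-45257670 is on the plus strand of the same chromosome. The gene of CD226 is ENSMUSG00000034028. All are protein coding, and no other annotated gene overlapped them.

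The promoters of Havcr2 and Lgals9 are shown because these genes of a receptor and its ligand were both read in microglia and macrophages, while Lgals9 was also read in every lymphocyte class and Havcr2 hardly in NK and B cells. Each runs from 250 bases before to 50 bases after the RefSeq start (GRCm38.p6), at chr11:46454681-46454980 on the plus strand for Havcr2 and chr11:78984875-78985174 on the minus strand for Lgals9. Capitals mark matches, on either strand, to the cores GAGGAA (ETS factors of the PU.1 kind), TGTGGT (RUNX), GGTGTGA (T-box), the interferon response element core, TGANTCA (AP-1) and TTCNNNGAA (STAT, GAS).
Havcr2: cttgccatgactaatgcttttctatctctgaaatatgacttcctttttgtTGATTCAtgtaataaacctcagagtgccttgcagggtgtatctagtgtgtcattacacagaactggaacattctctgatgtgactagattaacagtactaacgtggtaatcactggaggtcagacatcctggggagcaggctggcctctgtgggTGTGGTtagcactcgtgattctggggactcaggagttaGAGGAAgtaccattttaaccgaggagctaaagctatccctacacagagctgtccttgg
Lgals9: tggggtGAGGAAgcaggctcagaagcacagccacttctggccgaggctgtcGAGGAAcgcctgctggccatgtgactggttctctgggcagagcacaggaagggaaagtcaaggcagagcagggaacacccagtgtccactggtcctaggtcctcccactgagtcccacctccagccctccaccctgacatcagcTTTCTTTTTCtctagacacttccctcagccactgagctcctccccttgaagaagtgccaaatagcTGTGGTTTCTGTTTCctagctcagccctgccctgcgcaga
The Havcr2 window held an AP-1 core, a RUNX core and an ETS core. The Lgals9 window held 2 ETS cores, a RUNX core and 2 interferon response cores, of which the RUNX core and the downstream interferon core overlap. Among 32851 RefSeq promoters of this length, 28.3% held the ETS core, 16.8% the RUNX core, 7.81% the AP-1 core, 3.44% the interferon response core, 3.98% the T-box core and 8.3% the GAS core. Of the other genes, the Tigit window held a RUNX core alone, that of Cd96 held 2 RUNX cores and a GAS core, and that of Btla 2 ETS cores and a RUNX core. A match is a string of letters and not a shown binding site.

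After filtering, 3706 cells were kept from depletion, 1763 from anti-CTLA-4, 1434 from IgG and 1388 from healthy brain. Their median depths were 4359, 5655, 5853 and 5059.5 unique molecular identifiers (UMIs) per cell in that order. Over all barcodes before filtering, the libraries held 21471565, 13428840, 9952379 and 7950206 UMIs. Kept cells shared a barcode with another library in 6, 3, 1 and 2 cases. Sorted microglia, CD11b+ myeloid cells, CD3+ T cells and remaining immune cells had been mixed at equal ratios, so class sizes say nothing about tissue abundance. Classes were clusters named from marker genes, and T cells numbered 1192, 534, 411 and 141 in the same order. CD8 T cells (a Cd8a or Cd8b1 UMI and no Cd4 UMI) numbered 778, 155, 85 and 57, and CD4 T cells (the converse) 18, 176, 134 and 41. T cells with a Foxp3 UMI numbered 141, 100, 115 and 2, and NK cells 285, 362, 165 and 4. The 456, 209, 289 and 792 microglia came from 3 clusters of unequal mix: cluster 15 held 786 of those in healthy brain, cluster 1 held 183 of those with IgG, and cluster 2 held 256 of those in depletion but 9 of those with anti-CTLA-4. Cluster 15 led with 9 microglia markers among its top 10 genes, whereas cluster 1 led with 3 macrophage markers against all other cells and with 5 microglia and 2 macrophage markers against cells outside the class. Cluster 2 had no microglia marker among its top 10 genes against all other cells, and 4 microglia and 2 macrophage markers against cells outside the class. Cd4, the target of the added antibody, stood at 7.43 CPM (UMIs of the gene scaled to a common class total) in T cells of depletion, against 135 with anti-CTLA-4, 141 with IgG and 79.2 in healthy brain. T cells with a Foxp3 UMI carried 1 Cd4 UMI in depletion, against 85 with anti-CTLA-4 and 85 with IgG.

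With 1 library per group there is no replicate check and no p-value for any difference. Intervals in parentheses are 95% and cover counting error alone, and because UMIs come in clumps per cell, they are narrower than the full error. A gene is called different at a CPM ratio of at least 2 in either direction with 20 or more UMIs over the pair of libraries, in classes of at least 30 cells. In bulk sums over a class, fewer cells of a state and less RNA per cell cannot be told apart.

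Lag3 was nearly absent from T cells of healthy brain and abundant in those of the tumors, most of all with anti-CTLA-4, and its level was several-fold lower when anti-CD4 was added. Over all T cells it stood at 53.0 CPM in depletion (278 UMIs, 46.9 to 59.6), 223 with anti-CTLA-4 (745 UMIs, 208 to 240), 162 with IgG (407 UMIs, 147 to 178) and 2.26 in healthy brain (2 UMIs, 0.274 to 8.18). No 2 of these intervals overlapped. A Lag3 UMI was seen in 11.7%, 34.3%, 22.6% and 0.709% of the T cells in the same order. Neutrophils, which should lack it, had shares of 0.199%, 0, 2.04% and 1.18% at median depths of 1862, 2415, 2623 and 3244 UMIs, against 3949, 5458, 5197 and 6064 in T cells. Thinned to 1000 UMIs per cell the T cell shares were 3.997%, 12.0%, 7.14% and 0.709%, in the same order of libraries.

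**Figure D1:**
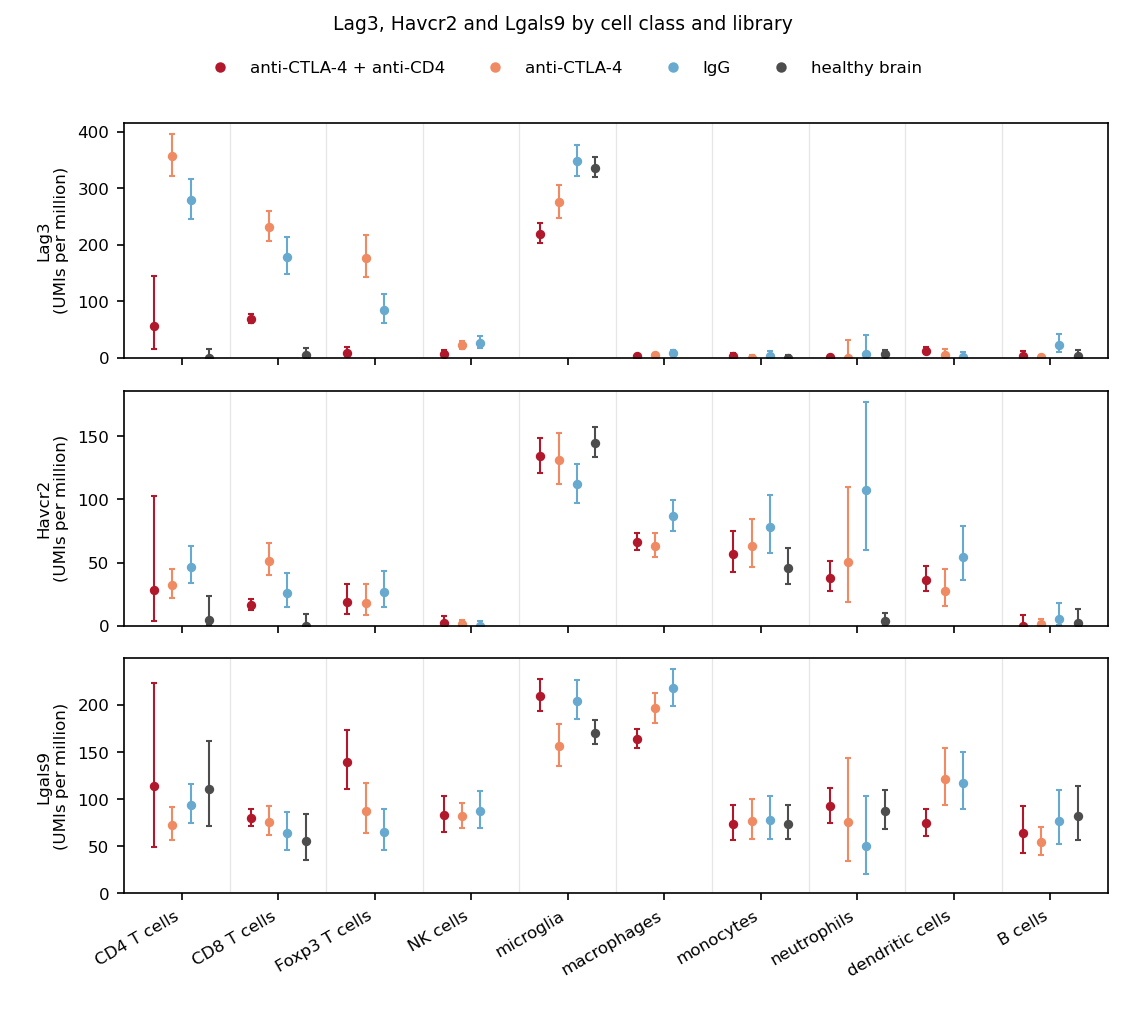
Lag3, Havcr2 and Lgals9 in CPM of the class total (linear axes) by cell class in depletion, anti-CTLA-4, IgG and healthy brain. Points are 1 library each and bars are exact Poisson 95% intervals. Lag3 is high in T cells of the tumor libraries and in microglia of all 4, where it lies between 220 and 348 CPM.

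In the tumor against healthy brain, Lag3 was 71.5-fold higher in T cells with IgG (19.7 to 593). In CD8 T cells it stood at 178 CPM with IgG against 4.87 in healthy brain (36.6-fold, 9.91 to 306). In CD4 T cells it stood at 279 CPM with IgG (250 UMIs), whereas none of the 41 CD4 T cells of healthy brain held a UMI, which allows a share of cells with a UMI of up to 7.32% (3 cells of the class) and makes the level at least 21.9-fold higher. Of the 6 members with enough UMIs in T cells, Lag3 and Havcr2 were called higher and none lower, where 18.1% of all genes tested were called in either direction. Most T cells of healthy brain, 115 of 141, lay in the naive-like T sub-cluster 8, which held 32 of 411 with IgG. Within that sub-cluster alone Lag3 stood at 4.59 CPM with IgG (1 UMI in 32 cells) and at 0 UMIs in 115 cells of healthy brain. The tumor library and the healthy one thus differ in the kinds of T cells they hold, and kind and level cannot be told apart at the scale of all T cells.

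Anti-CTLA-4 against IgG gave a smaller difference in the same gene, under the fold that was called. Lag3 was 1.38-fold higher in T cells (1.22 to 1.56), 1.30-fold higher in CD8 T cells (232 against 178 CPM, 1.05 to 1.63) and 1.28-fold higher in CD4 T cells (357 against 279 CPM, 1.09 to 1.51). No member of 7 was called in T cells, where 3.02% of all genes were. T cells with a Foxp3 UMI, a mark of regulatory T cells, passed that fold, with Lag3 at 177 CPM with anti-CTLA-4 (91 UMIs) against 84.5 CPM with IgG (48 UMIs), a 2.10-fold ratio (1.46 to 3.04). It was the only call among 5 members there, where 5.38% of genes were called. In the regulatory-like T sub-cluster 1, which is defined without use of these 7 genes, the ratio was 2.50 (1.79 to 3.55), from 178 and 71.3 CPM. It was also past the fold in sub-cluster 9, which held no cell with a Foxp3 UMI, at 2.99 (1.11 to 9.32) on 16 and 6 UMIs. Whether the ratio in Foxp3 cells differs from that in other T cells was not tested.

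With anti-CD4 added to anti-CTLA-4, Lag3 was lower in each T and NK cell class compared. In CD8 T cells it stood at 69.1 CPM in depletion (260 UMIs, 61.0 to 78.1) against 232 with anti-CTLA-4 (293 UMIs, 206 to 260), a ratio of 0.298 (0.251 to 0.353). Over all T cells the ratio was 0.237 (0.206 to 0.273), and Lag3, Havcr2 and Tigit were called lower of 7 members, where 5.82% of genes were called. T cells with a Foxp3 UMI carried 8.41 CPM in depletion (5 UMIs in 141 cells) against 177 with anti-CTLA-4 (91 UMIs in 100 cells), 21.1-fold lower (ratio 0.0475, 0.0151 to 0.115). That was the only call among 5 members, where 8.73% of genes were called. These Foxp3 cells also differed in Cd4 between the libraries, as given above, and the part of that in the Lag3 level was not tested. Among CD8 T cells, 73 of 778 held a Foxp3 UMI in depletion and 5 of 155 with anti-CTLA-4, and none of the 73 held a Lag3 UMI.

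The lower Lag3 level of CD8 T cells was looked for within the T sub-clusters, first over the CD8 T cells of each. Sub-cluster 5 was led by Gm156, Ifitm1, Gzmf and Gzma, followed by Klre1 and Xcl1. It held 53 of the 778 CD8 T cells of depletion, against 57 of 155 with anti-CTLA-4 and 22 of 85 with IgG. It carried 227 of the 293 Lag3 UMIs of CD8 T cells with anti-CTLA-4. Its CD8 T cells stood at 320 CPM in depletion and 414 with anti-CTLA-4, a ratio of 0.773 (0.617 to 0.964). In the CD8-like sub-cluster 2, with 209 and 25 CD8 T cells, the ratio was 1.42 (0.568 to 4.59) on 46 and 5 UMIs. Some other sub-clusters were lower within themselves. In the interferon-led sub-cluster 0 the ratio was 0.228 (0.0960 to 0.554), from 14 UMIs in 91 CD8 T cells of depletion and 11 UMIs in 9 with anti-CTLA-4, and in sub-cluster 7, which has macrophage markers, it was 0.136 (0.0512 to 0.309) on 7 and 37 UMIs. In sub-cluster 9, led by the Ly49 receptor genes Klra7 and Klra1, none of 36 CD8 T cells of depletion held a Lag3 UMI, against 8 UMIs in 22 CD8 T cells with anti-CTLA-4, and the interval of the ratio reached 0.547. Sub-cluster 4 stood at 71.6 CPM in 148 CD8 T cells of depletion and held none with anti-CTLA-4. The libraries thus differed both in how their CD8 T cells were spread over the sub-clusters and in the level within several of them, and the parts of the 2 in the ratio of 0.298 were not tested.

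Over all T cells of a sub-cluster, Lag3 in sub-cluster 5 stood at 319 CPM in depletion, 398 with anti-CTLA-4 and 442 with IgG (depletion over anti-CTLA-4 0.801, 0.641 to 0.998). In sub-cluster 9 it stood at 7.25 CPM in depletion (4 UMIs), 40.8 with anti-CTLA-4 (16 UMIs) and 13.7 with IgG (6 UMIs), and the same ratio was 0.178 (0.0432 to 0.551). In sub-cluster 6, led by Ccl1 and Ccl3, it stood at 98.8 CPM in depletion against 436 with anti-CTLA-4 and 446 with IgG (0.227, 0.135 to 0.36). Sub-cluster 6 held most CD4 T cells with anti-CTLA-4 (92 of 176), beside 2 CD8 T cells, among its 117 cells there. In depletion 11 of its 38 cells were CD4 T cells and 18 were CD8 T cells. Over its CD8 T cells alone the ratio of depletion to anti-CTLA-4 was 1.08 (0.251 to 9.74), on 15 and 2 UMIs. The part of this mix in the ratio of 0.227 was not tested. In the regulatory-like sub-cluster 1 Lag3 stood at 8.03 CPM in depletion against 178 with anti-CTLA-4 (0.0450, 0.0144 to 0.108). Sub-cluster 1 held 76 CD8 and 1 CD4 T cells in depletion, against 6 and 58 with anti-CTLA-4. The part of that difference in its ratio was not tested.

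**Figure D2:**
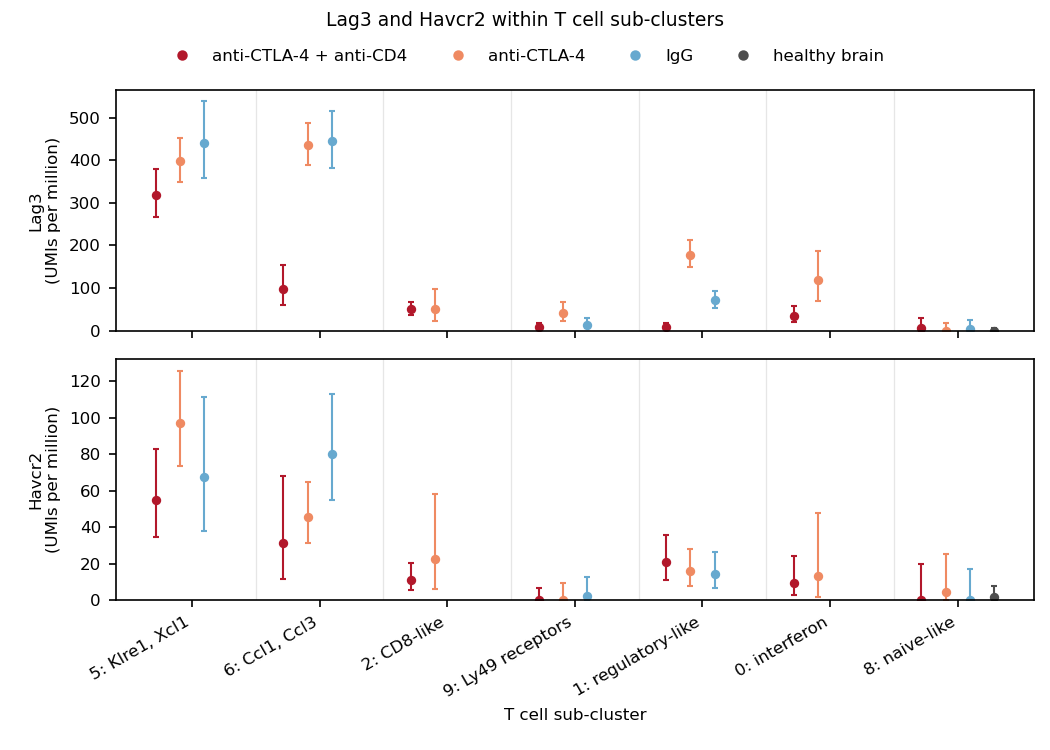
Lag3 and Havcr2 in CPM (linear axes) in T sub-clusters with at least 20 cells, by library. Points are 1 library each and bars are exact Poisson 95% intervals. Lag3 in sub-cluster 5 lies between 319 and 442 CPM in the 3 tumor libraries, while in sub-clusters 6 and 1 the depletion library lies at 98.8 and 8.03 CPM. Sub-clusters 6 and 1 differ between depletion and anti-CTLA-4 in their mix of CD4 and CD8 T cells.

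Markers of macrophages were read in the T cells of the tumors. Of 18 such markers 17 had UMIs in T cells of depletion, 16 with anti-CTLA-4, 17 with IgG and 14 in healthy brain, with summed levels of 817, 1140, 1058 and 225 CPM. The 8 T cell markers summed to 3984, 5058, 4293 and 3977 CPM in the same T cells. Macrophages themselves carried Lag3 at 3.24, 5.54 and 8.93 CPM in depletion, anti-CTLA-4 and IgG, below its level in T cells of the same library. Microglia carry Lag3 at a high level. The 16 microglia markers summed to 837, 902, 836 and 839 CPM in T cells of depletion, anti-CTLA-4, IgG and healthy brain. The part of macrophage or microglial RNA in the T cell level of Lag3 was not tested. T sub-cluster 7, which has 7 macrophage markers among its top 10 genes, held 33, 20, 13 and 1 T cells.

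NK cells held little Lag3, at 6.30 CPM in depletion (6 UMIs), 22.01 with anti-CTLA-4 (42 UMIs) and 25.8 with IgG (24 UMIs). T cells carried 8.40-fold, 10.1-fold and 6.27-fold more than NK cells in these libraries. The ratio of depletion to anti-CTLA-4 in NK cells was 0.286 (0.0995 to 0.677), the only call among 4 members, where 5.54% of genes were called. It rests on 6 UMIs in depletion, and the mean of per-cell CPM gave 0.570 and cells thinned to 1000 UMIs 0.879, neither of them a call. That of anti-CTLA-4 to IgG was 0.851 (0.504 to 1.47), with no member of 4 called, where 4.46% of genes were.

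Microglia carried Lag3 in every library, healthy brain included, at levels near or above those of tumor T cells. It stood at 220 CPM in depletion (615 UMIs, 203 to 238), 275 with anti-CTLA-4 (350 UMIs, 247 to 305), 348 with IgG (655 UMIs, 322 to 376) and 337 in healthy brain (1381 UMIs, 319 to 355), with a UMI in 59.9%, 64.1%, 63.3% and 70.2% of cells. The healthy brain and IgG intervals overlapped, and the ratio of IgG to healthy brain was 1.03 (0.941 to 1.13). The 8 T cell markers summed to 16.4, 7.85, 38.3 and 4.14 CPM in these microglia, in that order. Within the same library microglia exceeded CD8 T cells 3.18-fold in depletion, 1.18-fold with anti-CTLA-4 (1.01 to 1.39), 1.95-fold with IgG and 69.1-fold in healthy brain (19.1 to 572). Against macrophages the excess was 67.8-fold, 49.6-fold and 39.0-fold in the tumor libraries. By median over libraries the order of classes was microglia, CD4 T cells, CD8 T cells and NK cells, with the intervals of microglia and CD4 T cells apart in 3 of 3 libraries but with microglia higher in only 2 of them.

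Between tumor libraries Lag3 in microglia differed by less than the fold called. The ratio was 0.790 for anti-CTLA-4 over IgG (0.692 to 0.901) and 0.799 for depletion over anti-CTLA-4 (0.699 to 0.913). None of the 3 members tested in microglia was called in any of the 3 comparisons, where 18.6%, 4.47% and 12.6% of genes were called for IgG over healthy brain, anti-CTLA-4 over IgG and depletion over anti-CTLA-4. By cluster, cluster 15 gave 305 CPM in depletion, 293 with anti-CTLA-4, 226 with IgG and 338 in healthy brain, and its ratio of IgG to healthy brain was 0.668 (0.487 to 0.897). Cluster 1 gave 245, 267 and 373 CPM in depletion, anti-CTLA-4 and IgG. The ratio of depletion to anti-CTLA-4 was 1.04 in cluster 15 (0.770 to 1.40) and 0.919 in cluster 1 (0.761 to 1.11), so both intervals span 1. Cluster 2, which held most microglia of depletion, stood at 192 CPM there (318 UMIs, 172 to 215), against 5 UMIs in its 9 cells with anti-CTLA-4, too few for a comparison, and 29 UMIs in 53 cells with IgG. The part of cluster 2 in the ratio of 0.799 over all microglia was not tested. Median-of-ratios scaling moved all log2 ratios of IgG over healthy brain in microglia by 0.29, which is more than the difference seen for Lag3 over all microglia.

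The genes of the LAG-3 ligands moved far more than Lag3 in the same microglia. H2-Aa, an MHC class II chain, stood at 847 CPM in depletion, 6669 with anti-CTLA-4, 4893 with IgG and 3.66 in healthy brain. The other chains H2-Ab1 (942, 7096, 4705 and 13.2 CPM) and H2-Eb1 (722, 5608, 3691 and 2.44 CPM) and the invariant chain Cd74 (2733, 17662, 13423 and 61.7 CPM) followed the same order of libraries. Lgals3, encoding galectin-3, another ligand of LAG-3, stood at 146, 148, 142 and 8.78 CPM. Of 9 listed genes of LAG-3 ligands and of proteases that shed the receptor, 7 were tested. Of these, 5 were called higher with IgG than in healthy brain and none lower, where 18.6% of all genes were called in either direction. Their median log2 ratio was 7.77 beside -0.33 over all genes. For anti-CTLA-4 over IgG none was called, where 4.47% of all genes were (median 0.40 beside 0.03). For depletion over anti-CTLA-4, 4 were called lower and none higher, where 12.6% of all genes were called (median -2.69 beside -0.12).

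Clusters were unevenly mixed between libraries, so the ligand genes are also given within clusters. In cluster 15, H2-Aa stood at 527 CPM in depletion against 2758 CPM with anti-CTLA-4 (ratio 0.191), and at 2648 CPM with IgG against 3.69 CPM in healthy brain (718-fold). In cluster 1 H2-Aa stood at 1463 CPM in depletion against 8298 CPM with anti-CTLA-4 (ratio 0.176). Lgals3 in cluster 15 was at 9.81 CPM with IgG (2 UMIs) against 7.38 CPM in healthy brain (1.33-fold, 0.154 to 5.24), unlike its 16.2-fold ratio over all microglia. The 18 macrophage markers include H2-Aa, Cd74 and Lgals3, so their sum is not separate from the ligand genes. All 18 had UMIs in microglia of depletion, 17 with anti-CTLA-4, 18 with IgG and 17 in healthy brain. They summed to 50661, 64127, 61210 and 27618 CPM in that order. The 16 microglia markers summed to 32676, 54863, 38437 and 99885 CPM in the same microglia. The part of macrophage RNA in the ligand genes' levels was not tested.

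**Figure D3:**
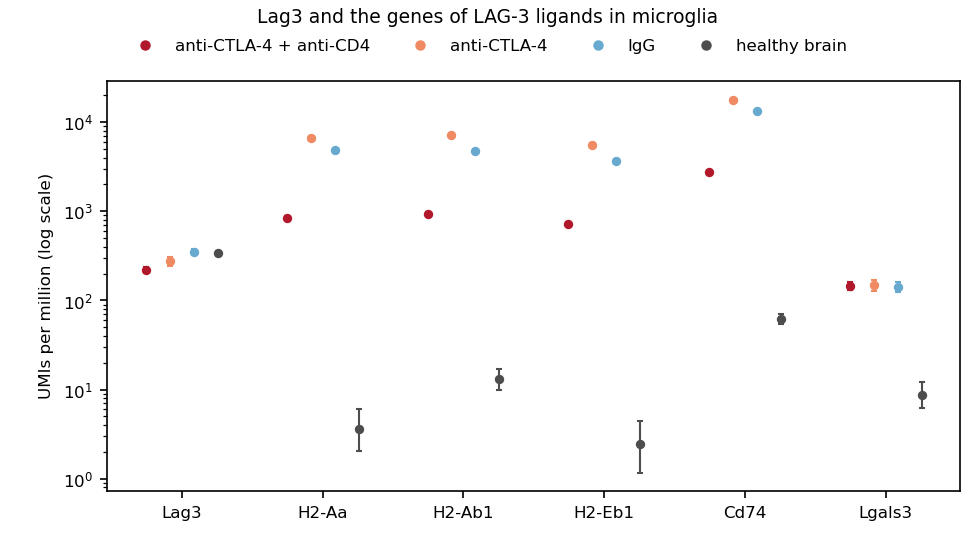
Lag3 and genes of LAG-3 ligands in microglia of the 4 libraries, in CPM on a log axis. Points are 1 library each and bars are exact Poisson 95% intervals. Lag3 stays between 220 and 348 CPM, while H2-Aa runs from 3.66 CPM in healthy brain to 6669 CPM with anti-CTLA-4.

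By median over libraries Havcr2 was highest in microglia, then in macrophages and monocytes, and lower in neutrophils, dendritic cells, CD4 and CD8 T cells, whose intervals overlapped between neighbours in that order in each library compared. In microglia it stood at 135 CPM in depletion (377 UMIs, 121 to 149), 131 with anti-CTLA-4 (167 UMIs, 112 to 153), 112 with IgG (211 UMIs, 97.5 to 128) and 145 in healthy brain (595 UMIs, 134 to 157). The IgG interval lay below that of healthy brain (ratio 0.773, 0.657 to 0.906), but in cluster 15 alone the ratio was 1.15 (0.792 to 1.63). Macrophages followed with 66.4, 63.4 and 86.6 CPM in depletion, anti-CTLA-4 and IgG, and monocytes with 56.9, 63.1, 78.1 and 45.8 CPM, healthy brain last. Intervals of microglia and macrophages were apart in 2 of 3 libraries, those of macrophages and monocytes in 0 of 3. Of the monocyte clusters, cluster 4 stood at 90.5, 87.0, 138 and 76.7 CPM and cluster 14 at 24.2, 19.4, 16.4 and 19.99 CPM, so the spread between these clusters exceeded that between libraries.

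In macrophages and monocytes together Havcr2 gave ratios of 1.85 for IgG over healthy brain (1.34 to 2.61), 0.747 for anti-CTLA-4 over IgG (0.621 to 0.899) and 1.03 for depletion over anti-CTLA-4 (0.877 to 1.21), none of them called. Neutrophils of the tumors held it at 38.0 CPM in depletion (42 UMIs), 50.4 with anti-CTLA-4 (6 UMIs) and 108 with IgG (15 UMIs), against 3.53 in healthy brain (3 UMIs). IgG over healthy brain was thus 30.4-fold (8.61 to 164) on 18 UMIs, under the minimum for a call, and the neutrophils of the tumors and of healthy brain lay in different clusters. Of the members tested in neutrophils none of 1 was called for IgG over healthy brain, 1 of 1 for anti-CTLA-4 over IgG (Havcr2 at 0.468, 0.149 to 1.28) and none of 2 for depletion over anti-CTLA-4, where 51.5%, 10.3% and 26% of genes were called in the same order. Dendritic cells held 36.2, 27.2 and 54.6 CPM in depletion, anti-CTLA-4 and IgG, and the ratio of anti-CTLA-4 to IgG, 0.498 (0.247 to 0.965), was called lower, but was 0.520 under median-of-ratios scaling and 1.42 in thinned cells. NK cells held at most 2.10 CPM and B cells, which should lack it, at most 4.97 CPM.

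In T cells Havcr2 stood at 13.7 CPM in depletion (72 UMIs), 34.2 with anti-CTLA-4 (114 UMIs), 26.7 with IgG (67 UMIs) and 1.13 in healthy brain (1 UMI). A UMI was seen in 4.45%, 10.9%, 7.54% and 0.709% of the T cells, against 0, 0.541%, 2.86% and 0.917% of B cells. Macrophages and microglia carry more Havcr2 than T cells do, and the part of their RNA in the T cell level was not tested. Leaving out T sub-cluster 7, chosen after the data were seen, the CD8 ratio of anti-CTLA-4 to IgG was 2.13, against 1.99 with it (1.15 to 3.62), which moves it past the fold called. In CD8 T cells Havcr2 stood at 16.5 CPM in depletion (62 UMIs), 51.5 with anti-CTLA-4 (65 UMIs, 39.7 to 65.6, overlapping the intervals of neutrophils and dendritic cells of that library) and 25.9 with IgG (17 UMIs). None of the 57 CD8 T cells of healthy brain held a UMI, which allows a share of cells with a UMI of up to 5.26%. Depletion over anti-CTLA-4 was 0.320 in CD8 T cells (0.222 to 0.460), and Lag3 and Havcr2 were the 2 calls among 7 members there, where 8.63% of genes were called. In the CD8 T cells of sub-cluster 5 the same ratio was 0.558 (0.324 to 0.932), from 55.0 and 98.6 CPM, on 22 and 54 UMIs.

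Lgals9, the galectin-9 gene, was read in every class, and over all T cells and over NK cells its level lay close together in the libraries, while T cells with a Foxp3 UMI ran between 65.1 and 140 CPM. T cells stood at 78.3 CPM in depletion, 71.3 with anti-CTLA-4, 81.2 with IgG and 77.0 in healthy brain, and NK cells at 83.0, 81.7 and 87.2 CPM in the tumor libraries. Macrophages held 164 CPM in depletion (154 to 174), 196 with anti-CTLA-4 (180 to 213) and 218 with IgG (199 to 238). They exceeded monocytes of the same library 2.23-fold, 2.55-fold and 2.80-fold. Macrophage cluster 3 held 456 of the 734 macrophages of depletion, none with anti-CTLA-4 and 9 with IgG. In macrophage cluster 9 the ratio of depletion to anti-CTLA-4 was 1.05 (0.925 to 1.19), against 0.836 over all macrophages (0.753 to 0.928). The part of cluster 3 in the latter was not tested. Microglia held 210, 156, 205 and 171 CPM, with ratios of 1.20 for IgG over healthy brain (1.06 to 1.36), 0.764 for anti-CTLA-4 over IgG (0.641 to 0.909) and 1.34 for depletion over anti-CTLA-4 (1.14 to 1.59), the last being 1.33 in cluster 1 (1.06 to 1.66) and 1.16 in cluster 15 (0.755 to 1.78). Lgals9 in macrophages and monocytes together was called higher with IgG than in healthy brain (2.35-fold, 1.84 to 3.02). The healthy class held 130 monocytes and 5 macrophages, and among monocytes alone the ratio was 1.05 (0.712 to 1.55). In that class Lag3 (at least 2.47-fold) was also called higher and Btla lower, 3 of 4 members tested, where 18.4% of genes were called. For anti-CTLA-4 over IgG none of 4 was called (3.21% of genes), and for depletion over anti-CTLA-4 1 of 4 was, Btla at 0.341 (0.1498 to 0.748; 10.2% of genes), which was 0.793 in thinned cells.

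Among T sub-clusters Lgals9 was highest in the interferon-led sub-cluster 0 of depletion, at 188 CPM (149 to 234), and the same sub-cluster stood at 132 CPM with anti-CTLA-4. In T cells with a Foxp3 UMI Lgals9 stood at 140 CPM in depletion (83 UMIs), 87.6 with anti-CTLA-4 (45 UMIs) and 65.1 with IgG (37 UMIs), a ratio of 1.59 for depletion over anti-CTLA-4 (1.10 to 2.34), and the regulatory-like sub-cluster 1 gave 1.68 (1.18 to 2.41). In dendritic cells the same ratio was 0.613 (0.448 to 0.844), from 74.5 and 121 CPM. None of these reached the fold called.

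Other ligands of TIM-3 were read beside it. Hmgb1, whose protein binds TIM-3, stood at 744, 638, 655 and 580 CPM in T cells of depletion, anti-CTLA-4, IgG and healthy brain. Ceacam1 was 0.304 times its healthy level in macrophages and monocytes with IgG (58.8 against 194 CPM) and 0.399 times in microglia. Monocytes were 130 of the 135 macrophages and monocytes of healthy brain, but 88 of 341 with IgG. Ceacam1 was among the top 10 genes of monocyte cluster 4, which held 75 cells in healthy brain and 54 with IgG. Microglia clusters were also unevenly mixed, and the part of the mix in these ratios was not tested. Of the 6 listed TIM-3 ligands and partners, 3 were tested in microglia for IgG over healthy brain, with none called higher and 1 lower, Ceacam1. Of all genes 18.6% were called there in either direction (median log2 ratio -0.60 for the tested genes beside -0.33 over all genes).

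Tigit was the scarcest of the 7 genes in UMIs and was read almost only in T and NK cells. T cells held 19 UMIs in depletion (3.62 CPM, 2.18 to 5.65), 25 with anti-CTLA-4 (7.49 CPM, 4.85 to 11.1) and 18 with IgG (7.16 CPM, 4.24 to 11.3). None of the 141 T cells of healthy brain held one, which allows a share of cells with a UMI of up to 2.13% and a level of up to 3.40 CPM. The ratio of depletion to anti-CTLA-4 over all T cells was 0.483 (0.251 to 0.913), just past the fold called, and 0.515 under median-of-ratios scaling, which ends the call. In CD8 T cells it was 0.839 (0.308 to 2.64), and CD4 T cells, with 12.9 CPM with anti-CTLA-4 (13 UMIs) and 12.3 CPM with IgG (11 UMIs), numbered 18 in depletion with no Tigit UMI. T cells with a Foxp3 UMI, which overlap with these classes, held 6.73, 17.5 and 14.1 CPM in depletion, anti-CTLA-4 and IgG (4, 9 and 8 UMIs). NK cells held 7.36, 5.76 and 3.23 CPM (7, 11 and 3 UMIs), with overlapping intervals. Microglia, monocytes, neutrophils and dendritic cells held no Tigit UMI in any library, and macrophages held 1.

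**Figure D4:**
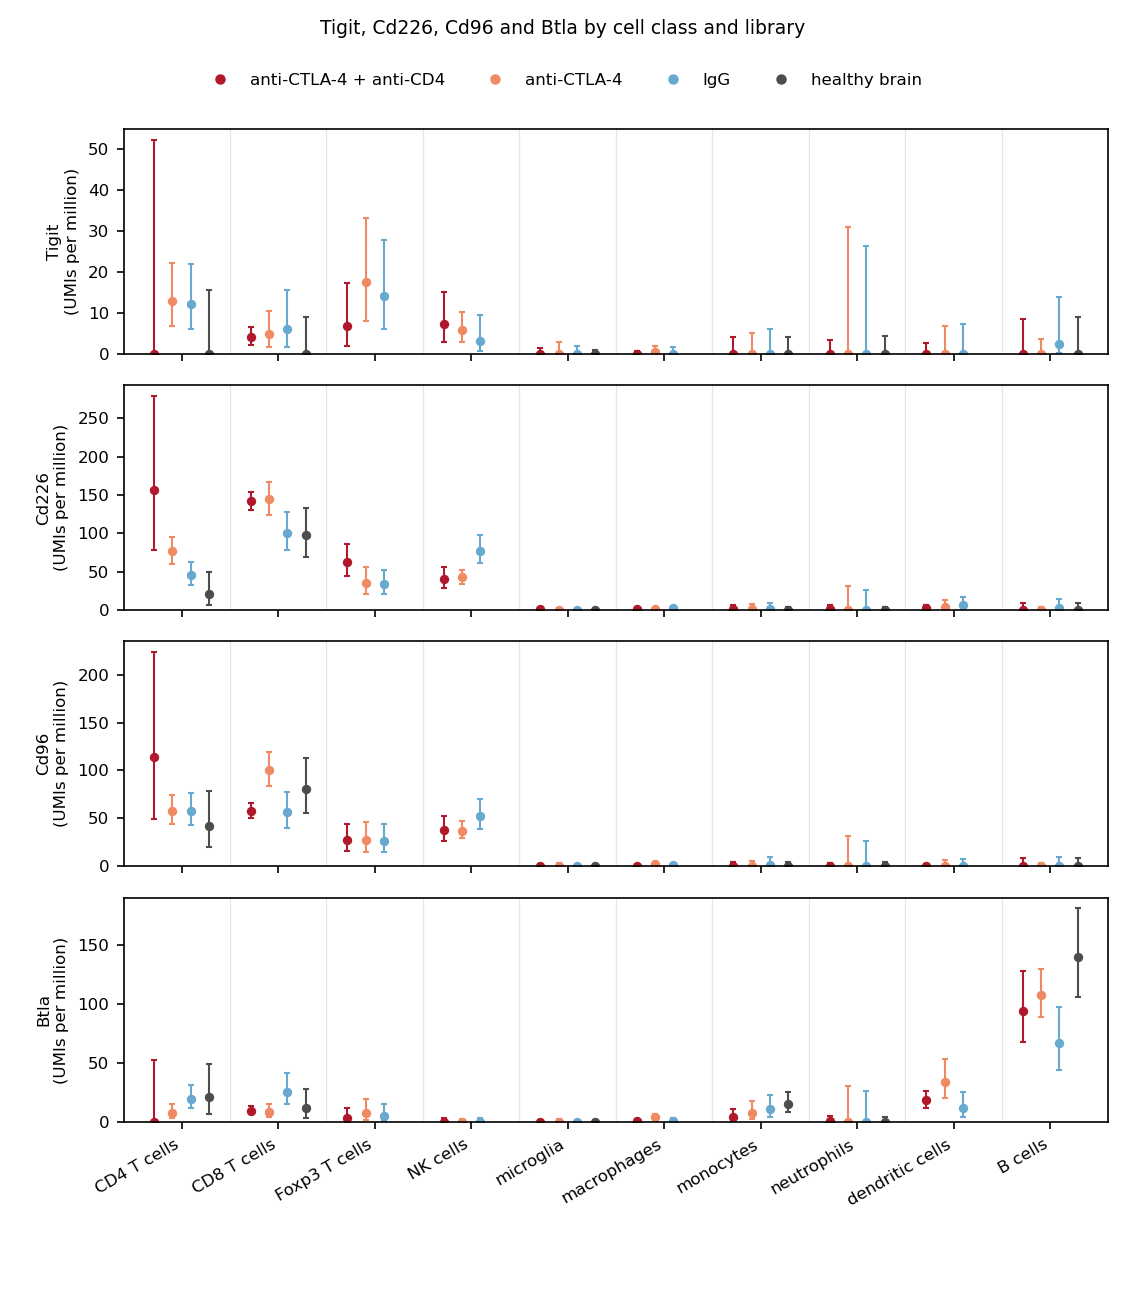
Tigit, Cd226, Cd96 and Btla in CPM of the class total (linear axes) by cell class and library. Points are 1 library each and bars are exact Poisson 95% intervals. The genes of the nectin receptor family are read in T and NK cells, with Cd226 highest in CD8 T cells, and Btla is highest in B cells, between 67.1 and 140 CPM.

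Cd226, the activating receptor of the family, was highest in CD8 T cells and present there in healthy brain as well. CD8 T cells held 142 CPM in depletion (534 UMIs, 130 to 155), 144 with anti-CTLA-4 (182 UMIs, 124 to 167), 100.5 with IgG (66 UMIs, 77.7 to 128) and 97.4 in healthy brain (40 UMIs, 69.6 to 133). Its ratio for depletion over anti-CTLA-4 was 0.984 (0.831 to 1.17), an interval that leaves out the 2-fold decreases called for Lag3 and Havcr2 in the same cells. CD4 T cells held 76.6, 45.7 and 21.2 CPM with anti-CTLA-4, with IgG and in healthy brain. The ratio of IgG to healthy brain, 2.15 (0.852 to 6.99), rests on 5 healthy UMIs, its interval spans 1, and it turned to 1.92 under median-of-ratios scaling and 0.932 in thinned cells. With Lag3 and Havcr2 it made 3 calls of 6 members in CD4 T cells, where 27.3% of genes were called. Anti-CTLA-4 over IgG was 1.68 in CD4 T cells (1.13 to 2.51), 1.43 in CD8 T cells (1.08 to 1.93) and 1.53 over all T cells (1.27 to 1.85), but 0.547 in NK cells (0.394 to 0.763), from 42.4 and 77.5 CPM. None of these reached the fold called. The T cells and NK cells differ in depth between libraries by different amounts, with NK medians of 3018, 4904 and 4840 UMIs in depletion, anti-CTLA-4 and IgG. In T sub-cluster 6 Cd226 stood at 244 CPM in depletion against 107 with anti-CTLA-4 (2.28-fold, 1.55 to 3.33), where Lag3 was lower. That sub-cluster held 18 CD8 and 11 CD4 T cells in depletion, against 2 and 92 with anti-CTLA-4. The part of this mix in the 2.28-fold ratio was not tested.

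Cd96 was read in the same cells, at 58.0 CPM in CD8 T cells of depletion (218 UMIs, 50.5 to 66.2), 100.6 with anti-CTLA-4 (127 UMIs, 83.9 to 120), 56.3 with IgG (37 UMIs, 39.7 to 77.7) and 80.3 in healthy brain (33 UMIs, 55.3 to 113). The anti-CTLA-4 interval lay above those of depletion and IgG, with ratios of 0.576 for depletion over anti-CTLA-4 (0.461 to 0.723) and 1.79 for anti-CTLA-4 over IgG (1.23 to 2.65), under the fold called. CD4 T cells held 57.7, 58.0 and 42.4 CPM with anti-CTLA-4, with IgG and in healthy brain, and NK cells 37.8, 37.2 and 52.8 CPM in the tumor libraries. Microglia and macrophages held at most 1.73 CPM of Cd96, and B cells, dendritic cells and neutrophils held no UMI of it.

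The balance of the inhibitory genes to Cd226 is given per library, since the libraries weigh unequally in each class. Tigit made up 14.4% of the UMIs of Tigit and Cd226 together in CD4 T cells with anti-CTLA-4 (7.92 to 23.4) and 21.2% with IgG (11.1 to 34.7). Its share in CD8 T cells was 2.73% in depletion (1.54 to 4.47), 3.19% with anti-CTLA-4 (1.18 to 6.82) and 5.71% with IgG (1.58 to 13.99), so the intervals of CD4 and CD8 T cells were apart with anti-CTLA-4 and overlapped with IgG. In T cells with a Foxp3 UMI it was 9.76% in depletion (2.72 to 23.1), 33.3% with anti-CTLA-4 (16.5 to 54.0) and 29.6% with IgG (13.8 to 50.2). Cd96 made up 43.0% of the UMIs of Cd96 and Cd226 together in CD4 T cells (34.5 to 51.8) and 41.1% in CD8 T cells (35.6 to 46.8) with anti-CTLA-4, and 55.9% (45.2 to 66.2) and 35.9% (26.7 to 46.0) with IgG, with overlapping intervals in both libraries. The share of Cd96 in CD8 T cells of depletion was 29.0% (25.8 to 32.4), below its interval with anti-CTLA-4. These shares do not compare the levels of the genes, whose 3′ ends may be captured unequally.

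The ligands of this family were found in the myeloid cells. In microglia Pvrl2, encoding nectin-2, stood at 48.6 CPM in depletion, 29.8 with anti-CTLA-4, 48.3 with IgG and 34.4 in healthy brain. Pvr, encoding CD155, stood at 12.9, 7.85, 10.6 and 9.51 CPM and Pvrl4 at 19.3, 36.9, 29.2 and 23.2 CPM. In macrophages and monocytes Pvrl1, encoding nectin-1, was at 3.82, 9.95, 5.95 and 34.4 CPM, with ratios of 0.173 for IgG over healthy brain and 0.384 for depletion over anti-CTLA-4. The libraries differ in the mix of macrophages and monocytes, and the part of that in these ratios was not tested. Of the 6 genes listed for this family (Pvr, the nectin genes and Pvrig), 5 were in the tables and 3 were tested in microglia. None was called for IgG over healthy brain, anti-CTLA-4 over IgG or depletion over anti-CTLA-4. Of all genes 18.6%, 4.47% and 12.6% were called in these comparisons.

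Btla was a B cell gene here, at 94.0 CPM in depletion (41 UMIs, 67.5 to 128), 108 with anti-CTLA-4 (113 UMIs, 88.9 to 130), 67.1 with IgG (27 UMIs, 44.2 to 97.7) and 140 in healthy brain (58 UMIs, 106 to 181). B cells stood apart from CD4 T cells, the next class, in 3 of 3 libraries. With IgG Btla in B cells was 0.480 times its healthy level (0.292 to 0.770), the only call among 2 members, where 15.9% of genes were called, and the call ended under median-of-ratios scaling (0.560) and 3 other settings (0.530 to 0.687). Anti-CTLA-4 over IgG gave 1.61 (1.05 to 2.55) and depletion over anti-CTLA-4 0.871 (0.594 to 1.26), with none called where 8.5% and 8.77% of genes were.

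In T cells Btla stood at 9.33 CPM in depletion (49 UMIs), 8.99 with anti-CTLA-4 (30 UMIs), 15.9 with IgG (40 UMIs) and 19.2 in healthy brain (17 UMIs). CD8 T cells held 9.84, 8.72, 25.9 and 12.2 CPM (37, 11, 17 and 5 UMIs), with IgG the highest. The CD8 ratios were 2.13 for IgG over healthy brain (0.753 to 7.37), 0.337 for anti-CTLA-4 over IgG (0.143 to 0.762) and 1.13 for depletion over anti-CTLA-4. Lag3 and Btla were the calls among 5 members in the first, where 14.7% of genes were called, and Btla alone among 6 in the second, where 6.04% were. In CD4 T cells Btla was at 7.96 CPM with anti-CTLA-4 (8 UMIs) and 20.1 with IgG (18 UMIs), a ratio of 0.396 (0.149 to 0.958) and the only call among 7 members, where 5.16% of genes were called. These calls in T cells rest on 22 to 28 UMIs each. In thinned cells the CD4 ratio turned to 2.25 and the CD8 ratio of anti-CTLA-4 to IgG stood at 0.529, and the CD8 ratio of IgG to healthy brain was 1.97 under median-of-ratios scaling.

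Dendritic cells held Btla at 18.4 CPM in depletion (27 UMIs), 34.4 with anti-CTLA-4 (19 UMIs) and 11.7 with IgG (6 UMIs), so anti-CTLA-4 over IgG was 2.94 (1.13 to 9.01). That call and the lower Havcr2 were 2 of 3 members tested, where 7.08% of genes were called. For depletion over anti-CTLA-4 Lag3 was the single call, 2.14-fold higher (0.618 to 11.4) from 11.6 and 5.44 CPM on few UMIs, where 15.7% of genes were called, and 1.19 without doublet removal. Btla in macrophages and monocytes was 0.216 times its healthy level with IgG (0.0826 to 0.536), but among monocytes alone the ratio was 0.746 (0.255 to 1.98), from 11.4 and 15.3 CPM. Microglia held at most 0.488 CPM and NK cells at most 0.524 CPM.

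On the ligand side of BTLA, Tnfrsf14, encoding HVEM, stayed at 6.28 CPM or less in each class. Lta, encoding lymphotoxin alpha, which also binds HVEM, stood at 12.6, 39.9, 19.9 and 7.92 CPM in T cells of depletion, anti-CTLA-4, IgG and healthy brain, and was called in each comparison (0.315 for depletion over anti-CTLA-4, 2.004 for anti-CTLA-4 over IgG and 2.51 for IgG over healthy brain). Ltb, its partner in the membrane complex, stood at 923, 1129, 933 and 761 CPM and was called in none. Tnfsf14, encoding LIGHT, was 3.08-fold higher in T cells with IgG than in healthy brain. Cd160, another receptor of HVEM, stood at 58.0, 85.6, 110 and 38.9 CPM in CD8 T cells (2.82-fold for IgG over healthy brain). Of the 4 tested genes of this list in T cells, 2 were called higher with IgG than in healthy brain, 1 higher with anti-CTLA-4 than with IgG and 1 lower in depletion than with anti-CTLA-4, where 18.1%, 3.02% and 5.82% of all genes were called. The medians of their log2 ratios were 0.96, 0.14 and -0.14, beside 0.20, -0.01 and -0.10 over all genes.

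**Figure D5:**
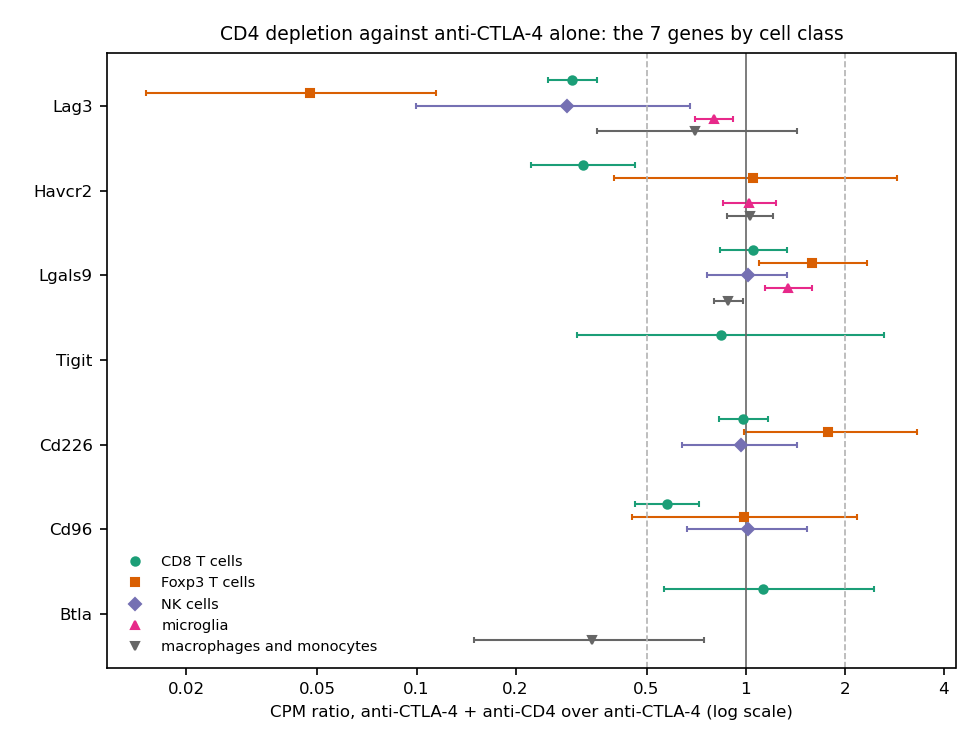
Ratio of CPM in depletion over anti-CTLA-4 on a log axis for each gene with at least 20 UMIs over the pair of libraries, in CD8 T cells, T cells with a Foxp3 UMI, NK cells, microglia, and macrophages and monocytes. Bars are exact conditional binomial 95% intervals and dashed lines mark ratios of 0.5 and 2. Lag3 lies below 0.5 in the 3 lymphocyte classes and at 0.799 in microglia, and Cd226 in CD8 T cells lies at 0.984.

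Other inhibitory receptors set the difference in Lag3 in context. Pdcd1, encoding PD-1, stood at 157, 186, 173 and 13.6 CPM in T cells of depletion, anti-CTLA-4, IgG and healthy brain, and Ctla4 at 157, 183, 253 and 13.6 CPM. Of the 10 listed receptors, 6 were called higher in T cells with IgG than in healthy brain and 1, Lair1, lower. Of all genes 18.1% were called there in either direction (median log2 ratio 1.99 for the receptors beside 0.20 over all genes). For anti-CTLA-4 over IgG none was called, where 3.02% of all genes were (0.05 beside -0.01). For depletion over anti-CTLA-4 none was higher and 1, Cd244, was lower at a ratio of 0.463, where 5.82% of all genes were called (median -0.24 beside -0.10). In CD8 T cells depletion over anti-CTLA-4 gave 3 higher and 1 lower of 10, where 8.63% of all genes were called (median log2 ratio -0.06 beside 0.01): Ctla4 (2.47-fold, 1.92 to 3.23), Cd200r1 (2.40-fold) and Klrg1 (10.3-fold, on 3 UMIs with anti-CTLA-4) were higher and Cd244 lower (0.214). Ctla4 in these CD8 T cells stood at 133 CPM in depletion against 53.9 with anti-CTLA-4, beside Foxp3 at 42.5 against 13.5 CPM. Lag3 and Ctla4 thus lay on opposite sides of 1 in the same cells, and the part of the CD8 T cells with Foxp3 in this was not tested.

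Of 10 transcription factors tied to effector and exhausted T cells, 7 were called higher with IgG than in healthy brain in T cells and 1 lower. Of all genes 18.1% were called there in either direction (median log2 ratio 1.58 for the factors beside 0.20). Batf (2.81-fold), Tbx21, encoding T-bet (2.81-fold), and Ikzf2, encoding Helios (4.82-fold), were among the higher genes. Tcf7, encoding the factor TCF-1 of naive and memory T cells, was the lower one, at 108 CPM with IgG against 304 in healthy brain. With anti-CTLA-4, Eomes alone was called against IgG, at a ratio of 0.407, where 3.02% of all genes were called. None of the 10 was called for depletion over anti-CTLA-4, where 5.82% of all genes were. Among 7 signalling adaptors, 2 were called higher with IgG than in healthy brain, where 18.1% of all genes were called in either direction (median log2 ratio 0.41 beside 0.20), and none for anti-CTLA-4 over IgG or for depletion over anti-CTLA-4.

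In single T cells Lag3 and Havcr2 were found together in 22 cells of depletion, 45 with anti-CTLA-4 and 24 with IgG, where the product of their shares gives 6.22, 19.9 and 7.01 cells. Of cells with a Lag3 UMI 15.7%, 24.6% and 25.8% held Havcr2, against 2.95%, 3.70% and 2.20% of other T cells. Cells with a Lag3 UMI were deeper, with medians of 5037, 6446 and 7066 UMIs against 3835.5, 5048 and 4603 in the others. Thinned to 1000 UMIs, 0, 12.5% and 0 of the Lag3 cells held Havcr2, too few cells to read an order. For Lag3 and Pdcd1 the shares also differed at equal depth, though no interval is given. Thinned, Pdcd1 was seen in 34.0%, 23.4% and 28.6% of T cells with Lag3, in depletion, anti-CTLA-4 and IgG. Among T cells without Lag3 it was seen in 9.65%, 11.7% and 9.62%. All kinds of T cells were pooled here, and the part of their mix in these shares was not tested. Lag3 and Foxp3 shared 5, 27 and 17 T cells, fewer than the 16.6, 34.3 and 26.0 that the product of their shares gives.

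Over 32 sums of a class in a library, each gene's level was set beside that of 9271 others by Spearman's rho on log2(CPM + 1), as a description of classes that share libraries and depth. Nearest to Lag3 were Ryk (0.84), Pmepa1 (0.82) and Ldlrad4 (0.81), and nearest to Havcr2 were Ctsb (0.94), Adam15 (0.89) and Adam10 (0.88). Among the genes nearest to Lgals9 were Pdgfa (0.77) and Zfyve19 (0.75). Those nearest to Cd226 included Ms4a4b (0.87) and Atp10a (0.86), and those nearest to Cd96 included Tox (0.84) and Ubash3a (0.84). Tigit was nearest to Rgs16 (0.88), Crmp1 (0.86) and Fasl (0.84), and Btla to Map4k1 (0.90), Dpp4 (0.84) and Nap1l1 (0.81).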

How the data were processed

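The deposited values are UMI counts per gene and cell barcode in 1 table per library, made by the authors with Cell Ranger 3.1.0 per the file headers and on mm10 per the submitters' processing notes; the annotation release is not given in the sources used here. Kept cells had 200 genes or more and no more than 10% of their UMIs from mitochondrial genes. Doublets were scored with Scrublet at an expected rate of 0.05, by its automatic threshold in IgG (10 removed) and healthy brain (12), and by the top 5% of scores in depletion (169) and anti-CTLA-4 (90), where that threshold marked under 0.5% of cells.

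Cells were clustered with scanpy 1.11.5 (10000 counts per cell, log, 2000 variable genes, 30 principal components, 15 neighbours, Leiden resolution 1) into 23 clusters, and T cells into 13 sub-clusters, with the 7 genes and the listed partner genes left out. Names came from 28 marker lists and are likenesses. UMIs were summed per class and library; ratios, Poisson, conditional binomial and Clopper-Pearson intervals (95%) came from SciPy 1.17.1, with a floor of 3 counts per library against 0 UMIs and of 3 cells of the class against a share of 0. The comparison was tested on simulated data. The members, markers and 7 partner lists were chosen with earlier results of these data known. The 7 genes are always named; of each partner list, the 2 to 4 members with the highest CPM and any called; and per gene the 3 others most alike in pattern among genes with at least 200 UMIs, of which 1 each for Lgals9, Cd226 and Cd96 is not reported here. Gene positions came from GENCODE vM21, which matched 27722 of 27998 gene IDs.

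Alternatives were median-of-ratios scaling, totals without ribosomal and mitochondrial genes, the mean of per-cell CPM, cells thinned to 1000 UMIs, no doublet removal, at least 500 genes per cell, resolutions 0.5 and 2, a fold of 1.5 and no minimum on UMIs.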

Additional observations from a re-analysis of the deposited data

Results flagged for a closer look

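Lag3 differed in size of effect between classes for depletion over anti-CTLA-4. The ratio was 0.237 in T cells, 0.298 in CD8 T cells, 0.0475 in T cells with a Foxp3 UMI and 0.286 in NK cells, whereas it was 2.14 in dendritic cells, on few UMIs. The difference between classes was not tested.

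Btla differed in direction between classes. For IgG over healthy brain the ratio was 2.13 in CD8 T cells, against 0.216 in macrophages and monocytes and 0.480 in B cells. The CD8 interval spans 1 (0.753 to 7.37), and monocytes alone gave 0.746 (0.255 to 1.98). The B cell ratio was 0.560 under median-of-ratios scaling, which ends the call. For anti-CTLA-4 over IgG the ratio was 0.396 in CD4 T cells and 0.337 in CD8 T cells, against 2.94 in dendritic cells. In thinned cells the CD4 ratio turned to 2.25 and the CD8 ratio was 0.529, not a call. These differences were not tested, and the counts behind them are small.

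A proliferating cluster left unnamed, cluster 11, held 74 cells in depletion, 3 with anti-CTLA-4, 8 with IgG and none in healthy brain, and entered no comparison. Its depletion cells carried Lag3 at 111 CPM (86.3 to 141), Havcr2 at 98.0 CPM (74.6 to 126) and Lgals9 at 209 CPM (174 to 249).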

How the results depend on the processing

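No paired analysis was possible because every group is 1 library and the labels pair none. Of the ratios recomputed under the alternatives, 889 lay within the counting interval of the value reported, 52 moved out of it and 3 reversed. All 3 reversals came in cells thinned to 1000 UMIs: Cd226 in CD4 T cells with IgG over healthy brain (0.932), Btla in CD4 T cells with anti-CTLA-4 over IgG (2.25) and Havcr2 in dendritic cells with anti-CTLA-4 over IgG (1.42). The cause was not tested, though thinning leaves fewer UMIs.

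Counts of members called moved by more than 1.5 times as follows. In thinned cells they were 1 for T cells, CD4 T cells, and macrophages with monocytes with IgG over healthy brain and 0 for CD8 T cells and B cells. They were 0 with anti-CTLA-4 over IgG for CD4 T cells, Foxp3 T cells, neutrophils and dendritic cells. They were 0 with depletion over anti-CTLA-4 for Foxp3 T cells, NK cells, macrophages with monocytes and dendritic cells, and 1 for neutrophils. At 1.5-fold, anti-CTLA-4 over IgG gave 2 for T, CD4 T and Foxp3 T cells and for macrophages with monocytes, 3 for CD8 T cells and 1 for NK and B cells; depletion over anti-CTLA-4 gave 3 for Foxp3 T cells and dendritic cells; and IgG over healthy brain gave 1 for neutrophils. Median-of-ratios scaling gave 1 for CD8 T cells and neutrophils and 0 for B cells with IgG over healthy brain, and 1 for dendritic cells with anti-CTLA-4 over IgG. Totals without ribosomal and mitochondrial genes gave 1 for CD8 T cells and 0 for B cells with IgG over healthy brain. The mean of per-cell CPM gave 2 for CD8 T cells and 1 for macrophages with monocytes with anti-CTLA-4 over IgG, 0 for NK and dendritic cells with depletion over anti-CTLA-4, and 1 for neutrophils and 0 for B cells with IgG over healthy brain. Without doublet removal, macrophages with monocytes gave 1 with anti-CTLA-4 over IgG and 4 with depletion over anti-CTLA-4 (Lag3 at 0.239), neutrophils gave 1 with IgG over healthy brain and dendritic cells 0 with depletion over anti-CTLA-4. Without a minimum on UMIs, depletion over anti-CTLA-4 gave 3 for Foxp3 T cells, 2 for macrophages with monocytes and 1 for B cells, IgG over healthy brain 1 for neutrophils and 3 for B cells, and anti-CTLA-4 over IgG 2 for B cells. Resolution 0.5 gave 1 for dendritic cells with anti-CTLA-4 over IgG. Of the alternatives chosen after seeing the data, T cells without sub-cluster 7 gave 2 for CD8 T cells with anti-CTLA-4 over IgG, and T sub-cluster 8 alone gave 0 with IgG over healthy brain. Smaller changes were these. Median-of-ratios scaling gave 2 in place of 3 for T cells with depletion over anti-CTLA-4 (Tigit at 0.515) and for CD4 T cells with IgG over healthy brain (Cd226 at 1.92), and totals without ribosomal and mitochondrial genes gave 2 for the same CD4 comparison (Cd226 at 1.77). Thinned cells gave 2 for T cells with depletion over anti-CTLA-4. A fold of 1.5 gave 3 in place of 2 for CD8 T cells with depletion over anti-CTLA-4 (Cd96 added). For macrophages and monocytes with IgG over healthy brain, 1.5-fold and median-of-ratios scaling each gave 4 in place of 3. Without a minimum on UMIs, T and CD8 T cells with IgG over healthy brain and dendritic cells with anti-CTLA-4 over IgG gave 3 in place of 2.

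Of the shares of cells with a UMI, 688 stayed within their interval and 117 moved, 114 of them under thinning, which lowers a share by its construction. Depth limits Tigit: at 18 to 25 UMIs in the T cells of a tumor library a 2-fold difference lies within or near its counting interval.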
